A study of Mus musculus with 16 samples.

Results

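Collagen, laminin and integrin genes were taken from a gene-level FPKM table of mouse embryonic stem cells by their symbols: collagen chains, the alpha, beta and gamma chains of laminin, and the alpha and beta chains of integrins. The rule found 81 of the 41202 Ensembl identifiers in the table, made up of 44 collagens, 11 laminins, 18 integrin alpha chains and 8 integrin beta chains. Of these, 31 reached 1 FPKM in at least 2 of the 8 libraries and were tested. The 50 others did not; 41 of them were below 0.5 FPKM in all 8 libraries, and 4, Col19a1, Col4a3, Itgad and Itgax, were listed at 0 throughout.

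The libraries came from cells labelled Dgcr8-/- (line ES1, called KO here) and WT (line v65), both of strain 129/C57BL/6. Each genotype was sampled at 48 h in N2B27 with bFGF and KSR, a medium in which cells leave naive pluripotency, and in 2iL, the starting medium. Each of the 4 groups held 2 libraries. The study calls them biological replicates without saying what was repeated, so the p-values measure the spread between these libraries, which may be partly technical. There was 1 line per genotype, and every difference between genotypes is therefore also a difference between lines; the labels do not say how the Dgcr8 allele was made. Dgcr8, the partner of Drosha in releasing most miRNA precursors, stood at 7.84 and 7.80 FPKM in KO and 20.7 and 20.9 FPKM in WT at 48 h, and at 9.11 and 9.33 FPKM in KO and 18.3 and 19.2 FPKM in WT in 2iL (log2 −1.31, limma adjusted p = 9.6e-07 at 48 h; −0.95, adjusted p = 8e-06 in 2iL). The table does not say which part of the gene is deleted.

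Laminins are trimers of 1 alpha, 1 beta and 1 gamma chain and, with network-forming collagen IV, nidogens and perlecan, build the basement membrane. Integrins are heterodimers of an alpha and a beta chain that bind these proteins, or fibronectin and vitronectin, from the cell surface. In the early mouse embryo the epiblast lies on a basement membrane, and cultured embryonic stem cells attach to laminin mainly through the integrin made of the Itga6 and Itgb1 products.

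Depth in reads is unknown for these libraries, since the deposited values are FPKM; their sums ranged from 475271 to 548453 per library. Across the tested genes, Pearson's r between the 2 libraries of each group lay between 0.9871 and 0.9907 on the log2 scale, a description over genes that are not independent. The list of 8 pluripotency markers, Nanog, Esrrb, Klf4, Zfp42, Tfcp2l1, Tbx3, Pou5f1 and Sox2, was called higher in KO at 48 h for all 8, where 33.4% of all genes were. Nanog, a naive factor, held 56.1 and 56.7 FPKM in KO and 5.38 and 5.31 FPKM in WT at 48 h. Pou5f1, shared by naive and later pluripotent cells, held 874 and 821 FPKM in KO and 738 and 695 FPKM in WT at 48 h. The part of this in the differences below was not tested. In bulk RNA, fewer cells expressing a gene and less RNA per cell cannot be told apart.

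At 48 h most of the measured matrix and integrin genes were higher in KO than in WT cells. Among the clearest were Itgb7, Itgb4, Itga9, Lama3, Itgav and Lamc1, with log2 differences of 1.67 to 3.17, while Lamb1 was lower at −1.6. Of the 31 genes tested, 24 were called higher (limma adjusted p below 0.05), where the share over all 13166 genes tested was 33.4%, and 3 were called lower, where that share was 38.5%; the 27 calls in either direction stand against 71.8%. The median log2 difference was 0.80 over the 31 genes and −0.05 over all genes tested. In 2iL, 17 were called higher, with 30.6% over all genes, and 5 lower, with 32.8% (22 in either direction, with 63.4%). The medians were 0.27 and −0.02. The filter shapes these counts, because Col14a1, Col5a3, Itga10 and Lamb3 had a mean of at least 1 FPKM in KO cells at 48 h only. Itgb3, Col26a1 and Col2a1 passed it only because of their KO libraries, in both media, so the counts in 2iL are shaped too. With no filter, 77 of the 81 genes were above 0 somewhere, and at 48 h 25 of them were called higher and 10 lower in KO, against shares of 21.7% and 24.8% over all genes. Leaving 2iL also moved these genes differently in each genotype. In KO cells 17 rose and 3 fell by 48 h, where 26.5% and 21.9% of all genes did (48.4% in either direction). In WT cells 11 rose and 12 fell, where 30.9% and 25.6% of all genes did (56.5% in either direction). The 2 changes share no library, but each genotype comparison shares its libraries with both.

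**Figure D1:**
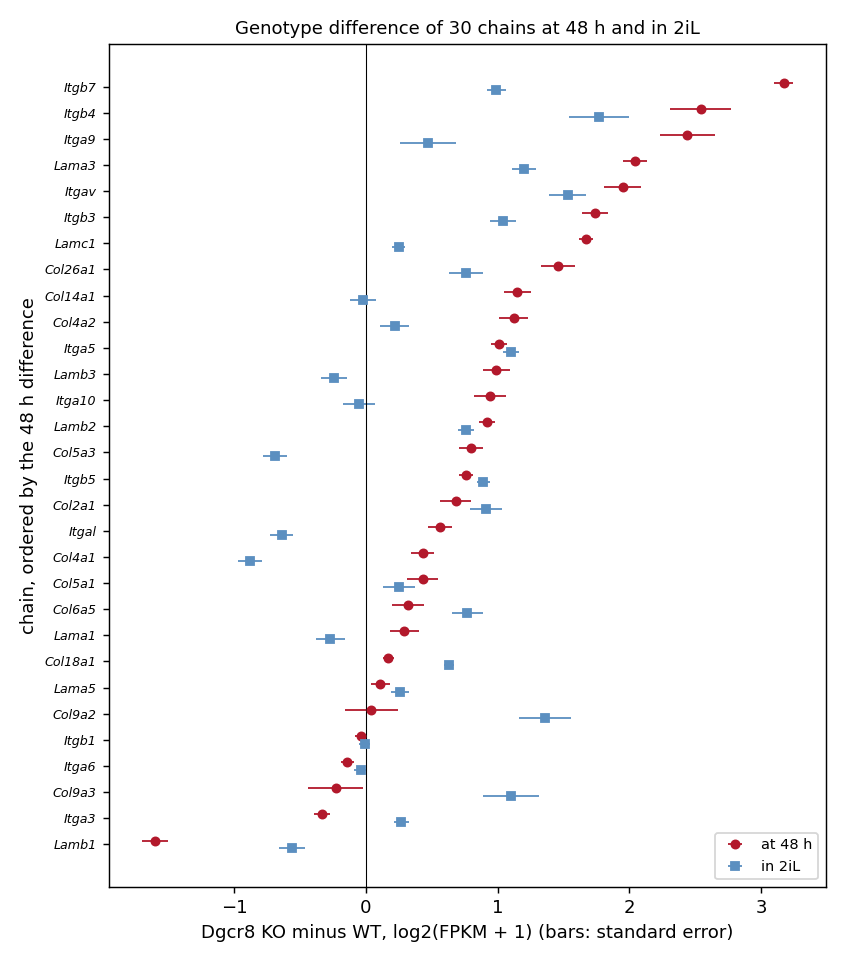
Difference between Dgcr8 KO and WT cells for 30 tested chains, in log2(FPKM + 1), at 48 h (circles) and in 2iL (squares), with standard errors as bars; each group has 2 libraries. Itgb7 stands at the top with 3.17 at 48 h and 0.99 in 2iL, and Lamb1 at the bottom with −1.6 and −0.56.

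Among laminin alpha chains, Lama5 was the most abundant and moved little, while Lama3 and Lama1 did not follow it. Lama5, the alpha chain of the main laminin of the epiblast basement membrane, held 26.0 and 24.3 FPKM in KO and 23.2 and 23.3 FPKM in WT at 48 h, and 27.7 and 29.7 FPKM in KO and 22.7 and 24.9 FPKM in WT in 2iL. Its 8 values thus span a narrow range, and of its differences only that between KO and WT in 2iL was called (log2 0.26, SE 0.07, limma adjusted p = 0.0095), a call lost without KO 2iL replicate 2 or WT 2iL replicate 1 (highest adjusted p = 0.057). The Lama5 fall by 48 h in KO (log2 −0.18, limma adjusted p = 0.05) was not called. It became a call with a mean of at least 5 FPKM and with median-ratio or quantile scaling. Lama3, the alpha chain of the laminin of epithelial anchoring sites, stood at 9.13 and 9.71 FPKM in KO and 1.57 and 1.48 FPKM in WT at 48 h. In 2iL it stood at 8.20 and 8.22 FPKM in KO and 3.35 and 2.72 FPKM in WT. The KO libraries were thus above the WT libraries in both media (log2 2.04, SE 0.09, limma adjusted p = 1.6e-06 at 48 h; 1.20, SE 0.09, adjusted p = 3.4e-05 in 2iL), and its change by 48 h was not called in KO cells (0.18, adjusted p = 0.16) and was a fall in WT cells (−0.67, adjusted p = 0.00066). Lama1, an early embryonic alpha chain, fell in both genotypes to 0.780 and 0.933 FPKM in KO and 0.573 and 0.469 FPKM in WT at 48 h, against 2.67 and 2.2 FPKM in KO and 2.99 and 3.29 FPKM in WT in 2iL (log2 −0.88, adjusted p = 0.00048 in KO; −1.44, adjusted p = 2.7e-05 in WT, both limma). Its difference between KO and WT at 48 h (0.29, limma adjusted p = 0.044) was lost under 7 of 10 alternatives, among them leaving out any of the 4 libraries, with adjusted p up to 0.37. The difference of its changes (0.56, limma adjusted p = 0.022) was lost without KO 48 h replicate 2, WT 48 h replicate 2, KO 2iL replicate 2 or WT 2iL replicate 2, with adjusted p up to 0.072.

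Of the beta chains, Lamb1 rose and Lamb2 fell by 48 h in both genotypes. Lamb1, the beta chain of most embryonic laminins, reached 5.88 and 7.45 FPKM in KO at 48 h, against 3.95 and 3.86 FPKM in KO in 2iL (log2 0.64, SE 0.10, limma adjusted p = 0.0016). In WT it reached 21.7 and 22.6 FPKM at 48 h, against 6.37 and 6.13 FPKM in 2iL (1.68, SE 0.10, adjusted p = 8.8e-06). The rise was smaller in KO, with a difference of −1.04 (SE 0.14, limma adjusted p = 0.0011). Lamb2, an alternative beta chain of neuromuscular and kidney basement membranes, went the other way, with 9.30 and 9.15 FPKM in KO and 4.42 and 4.38 FPKM in WT at 48 h, against 16.2 and 16.4 FPKM in KO and 9.45 and 8.99 FPKM in WT in 2iL. Its log2 changes were −0.76 in KO and −0.92 in WT (limma adjusted p = 5e-05 and 1.2e-05), and the difference of the changes was not called (0.16, adjusted p = 0.16). On the FPKM scale, which is per transcript length, Lamb1 made up 35.7% and 41.2% of the summed beta chains in KO and 82.3% and 83.3% in WT at 48 h, and 19.2% and 18.7% in KO and 38.5% and 38.9% in WT in 2iL.

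The bases just upstream of Lamb1 (chr12:31265146-31329644) and Lamb2 (chr9:108479847-108490530) are shown because these chains moved in opposite directions in both genotypes. They are the 100 bases before each annotated gene start, from RefSeq on the plus strand of GRCm38.p6, at chr12:31265046-31265145 for Lamb1 and chr9:108479747-108479846 for Lamb2. Capitals mark the match to CCAAT. The letters GGGCGG and the letters TATAAA were also searched, all on both strands.
Lamb1: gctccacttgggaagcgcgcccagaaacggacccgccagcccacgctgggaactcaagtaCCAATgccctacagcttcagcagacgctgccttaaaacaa
Lamb2: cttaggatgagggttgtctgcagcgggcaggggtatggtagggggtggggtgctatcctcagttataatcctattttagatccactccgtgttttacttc
The Lamb1 stretch holds 1 match to CCAAT and 0 to the others, and the Lamb2 stretch holds 0 of all 3. Of 32851 stretches of 100 bases before a start in the RefSeq promoter table, 18.9% hold CCAAT, 24.7% GGGCGG and 5.56% TATAAA. These matches describe the letters only.

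Of the gamma chains, Lamc1 was higher in KO at 48 h, and its 48 h change differed between genotypes. Lamc1, the gamma chain of nearly all basement membrane laminins, held 81.2 and 82.7 FPKM in KO at 48 h, against 82.7 and 80.1 FPKM in KO in 2iL, a change of 0.01 that was not called (limma adjusted p = 0.87). In WT cells it fell to 24.7 and 25.3 FPKM at 48 h, against 70.4 and 66.1 FPKM in 2iL (log2 −1.41, SE 0.05, limma adjusted p = 5.2e-07). The difference of the changes was 1.42 (SE 0.06, adjusted p = 9.1e-06), and the KO libraries at 48 h stood well above the WT ones (1.67, SE 0.05, adjusted p = 2.2e-07).

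Lamb3, a beta chain of epithelial laminin that assembles with the Lama3 product, was low, with 1.26 and 1.46 FPKM in KO and 0.243 and 0.138 FPKM in WT at 48 h, and 0.399 and 0.441 FPKM in KO and 0.719 and 0.642 FPKM in WT in 2iL. It entered the test only through the KO libraries at 48 h, so its being high there is not a result. It fell in WT (log2 −0.50, limma adjusted p = 0.0042). Lama2, Lama4 and Lamc3 stayed below 0.5 FPKM in all 8 libraries.

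**Figure D2:**
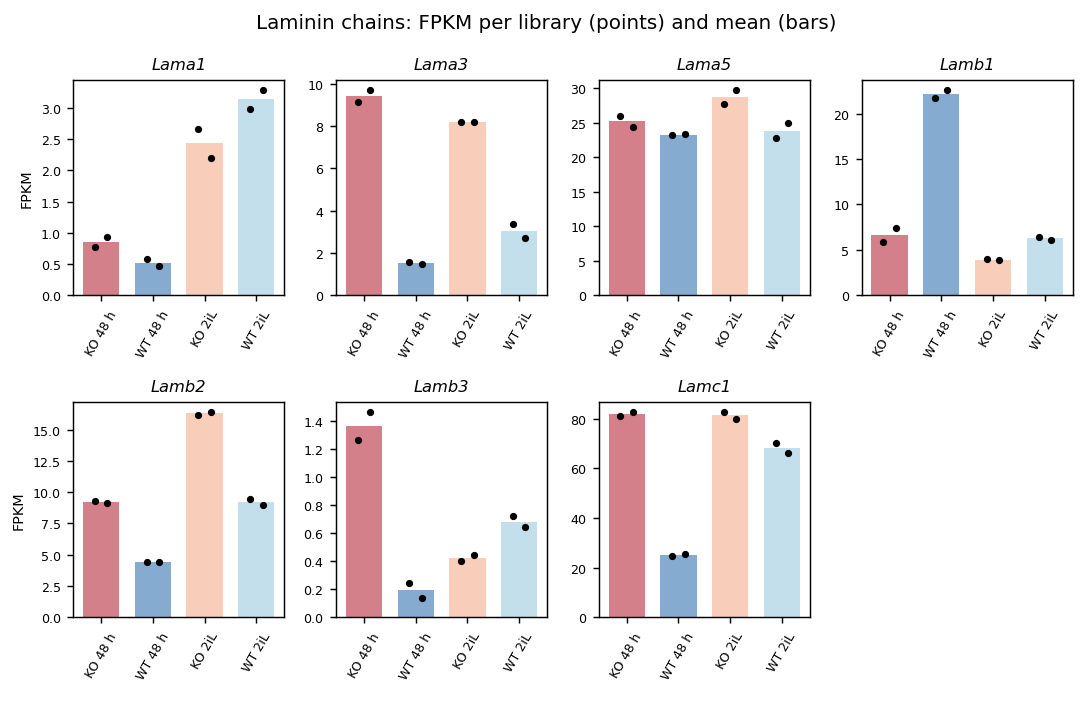
FPKM of 7 tested laminin chains in KO and WT cells at 48 h and in 2iL; points are the 2 libraries of a group and bars their mean, each panel with its own axis from 0. Lamc1 is near 82 FPKM at 48 h in KO and near 25.0 FPKM in WT.

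Among integrins, Itgb1, Itga6 and Itga3, chains of laminin receptors, rose in both genotypes. Itgb1, the beta chain shared by most matrix-binding integrins, held 67.1 and 65.2 FPKM in KO and 67.9 and 68.2 FPKM in WT at 48 h, against 50.4 and 51.7 FPKM in KO and 52.6 and 50.6 FPKM in WT in 2iL. It rose by 0.37 in KO and 0.39 in WT (limma adjusted p = 0.0003 and 0.00015), and the KO and WT libraries overlapped in 2iL. Itga6, its main laminin-binding partner here, rose too, with 53.6 and 52.5 FPKM in KO and 57.9 and 59.5 FPKM in WT at 48 h, against 26.2 and 25.8 FPKM in KO and 27.5 and 26.0 FPKM in WT in 2iL (log2 1.00, limma adjusted p = 4.4e-06 in KO; 1.11, adjusted p = 1.6e-06 in WT). Itga3, another laminin-binding chain, reached 23.9 and 25.2 FPKM in KO and 31.3 and 31.2 FPKM in WT at 48 h, against 3.83 and 3.58 FPKM in KO and 2.87 and 2.93 FPKM in WT in 2iL (2.44, limma adjusted p = 5.1e-07 in KO; 3.05, adjusted p = 9.3e-08 in WT). The rise was smaller in KO, with a difference of −0.60 (SE 0.09, adjusted p = 0.0013). At 48 h Itga3 and Itga6 were both called lower in KO (−0.33, limma adjusted p = 0.0017, and −0.14, adjusted p = 0.023); the Itga6 call was lost under 6 of its 11 alternatives, among them leaving out any of the 4 libraries at 48 h, with adjusted p up to 0.34. In 2iL Itga3 was higher in KO (0.27, limma adjusted p = 0.0059), a call lost with quantile scaling and with the comparison fitted alone (highest adjusted p = 0.19).

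Itga5, Itgav and Itgb5, chains of the RGD-binding integrins that recognise fibronectin and vitronectin, were higher in KO in both media. Itga5, the fibronectin receptor chain, held 16.5 and 16.6 FPKM in KO and 7.74 and 7.65 FPKM in WT at 48 h, and 24.6 and 26.0 FPKM in KO and 10.9 and 11.6 FPKM in WT in 2iL. The genotypes did not overlap in either medium (log2 1.01, limma adjusted p = 4.5e-06 at 48 h; 1.10, adjusted p = 6.1e-06 in 2iL), and the difference of the changes was not called (−0.09, SE 0.08, adjusted p = 0.41). Itgav, the chain of the vitronectin receptors, stood at 18.1 and 21.2 FPKM in KO and 5.11 and 3.66 FPKM in WT at 48 h, and at 25.7 and 23.0 FPKM in KO and 7.61 and 7.96 FPKM in WT in 2iL (1.95, SE 0.14, adjusted p = 1.3e-05 at 48 h; 1.53, adjusted p = 6.4e-05 in 2iL). Itgb5, a chain that pairs with it, was higher in KO too. Itgb5 held 23.0 and 22.7 FPKM in KO and 13.4 and 12.8 FPKM in WT at 48 h, and 25.0 and 25.3 FPKM in KO and 13.4 and 12.9 FPKM in WT in 2iL (0.76 and 0.89 between genotypes, limma adjusted p = 9.5e-06 and 8.7e-06). Itgb3, another partner of Itgav, was at 3.05 and 2.57 FPKM in KO and 0.184 and 0.0968 FPKM in WT at 48 h. In 2iL it was at 1.57 and 1.51 FPKM in KO and 0.222 and 0.244 FPKM in WT. It entered the test only through the KO libraries, so no test is given for it between genotypes. Itgb1, which also pairs with Itgav, was not called between genotypes at 48 h (−0.04, limma adjusted p = 0.4). Itgb8, another chain that pairs with Itgav, was below the filter and stood at 0.0487 and 0.0364 FPKM in KO and 0.435 and 0.476 FPKM in WT at 48 h. Itga8 and Itga2b did not reach the filter, and Itgb6 stayed below 0.5 FPKM.

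Itgb4, which joins only the Itga6 product and anchors epithelial cells to the laminin made with the Lama3 product, held 9.47 and 10.7 FPKM in KO and 0.612 and 1.23 FPKM in WT at 48 h, and 6.44 and 4.76 FPKM in KO and 1.32 and 0.598 FPKM in WT in 2iL. The genotypes did not overlap in either medium (log2 2.54, SE 0.23, limma adjusted p = 4.4e-05 at 48 h; 1.77, SE 0.23, adjusted p = 0.0004 in 2iL). Its rise by 48 h in KO (0.75, adjusted p = 0.029) was lost without KO 48 h replicate 1, KO 48 h replicate 2 or KO 2iL replicate 2, with a pseudocount of 0.1 and with no filter, with adjusted p up to 0.15. The Itgb4 gene overlaps Galk1 in the RefSeq annotation, and the labels do not say whether reads were assigned by strand.

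Itgb7 (chr15:102215994-102233405, GRCm38.p6), a beta chain best known from lymphocytes, was much higher in KO at 48 h. It stood at 21.3 and 20.1 FPKM in KO and 1.44 and 1.40 FPKM in WT at 48 h, and at 15.1 and 16.3 FPKM in KO and 7.79 and 7.0 FPKM in WT in 2iL. The KO value at 48 h was 14.6 times the WT value (log2 3.17, SE 0.07, limma adjusted p = 1.3e-07), and the changes went in opposite directions (0.38, adjusted p = 0.0049 in KO; −1.79, adjusted p = 1.7e-06 in WT). Its known alpha partners were low: Itgae and Itga4 did not reach the filter. Itga9, an alpha chain that pairs with the Itgb1 product, held 5.21 and 8.16 FPKM in KO and 0.537 and 0.251 FPKM in WT at 48 h, and 6.86 and 5.08 FPKM in KO and 3.93 and 4.06 FPKM in WT in 2iL. Its change was not called in KO (log2 0.13, limma adjusted p = 0.65) and was a fall in WT (−1.85, adjusted p = 0.00022), and the difference of the changes was 1.97 (SE 0.29, adjusted p = 0.0016).

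Itgal, the alpha chain of a leukocyte integrin, was near 1 FPKM, with 1.40 and 1.49 FPKM in KO and 0.622 and 0.702 FPKM in WT at 48 h, and 0.773 and 0.664 FPKM in KO and 1.70 and 1.66 FPKM in WT in 2iL, so the genotypes changed places between media. Its obligate partner Itgb2 was below 0.5 FPKM in every library. Itga10, a collagen-binding chain, held 1.53 and 1.79 FPKM in KO and 0.359 and 0.409 FPKM in WT at 48 h, and 0.419 and 0.314 FPKM in KO and 0.286 and 0.550 FPKM in WT in 2iL. It too entered the test only through KO at 48 h, so no test is given for its level there. The other collagen-binding chains, Itga1, Itga2 and Itga11, did not reach the filter. A list of 10 blood cell markers was read beside these leukocyte chains, and 4 reached a group mean of 1 FPKM in KO and 3 in WT at 48 h. The list summed to 58.2 and 59.4 FPKM in KO and 8.96 and 10.1 FPKM in WT at 48 h, and to 93.8 and 91.5 FPKM in KO and 80.5 and 70.5 FPKM in WT in 2iL. Laptm5 alone held 45.8 and 46.3 FPKM in KO and 2.51 and 3.64 FPKM in WT at 48 h. In 2iL it held 50.6 and 50.4 FPKM in KO and 55.1 and 45.3 FPKM in WT, so it fell in WT. Kit held 38.5 and 37.5 FPKM in KO and 23.6 and 23.1 FPKM in WT in 2iL. The pan-leukocyte marker Ptprc was below 0.05 FPKM in every group, and the part of these markers in the Itgb7, Itga9 and Itgal values was not tested.

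**Figure D3:**
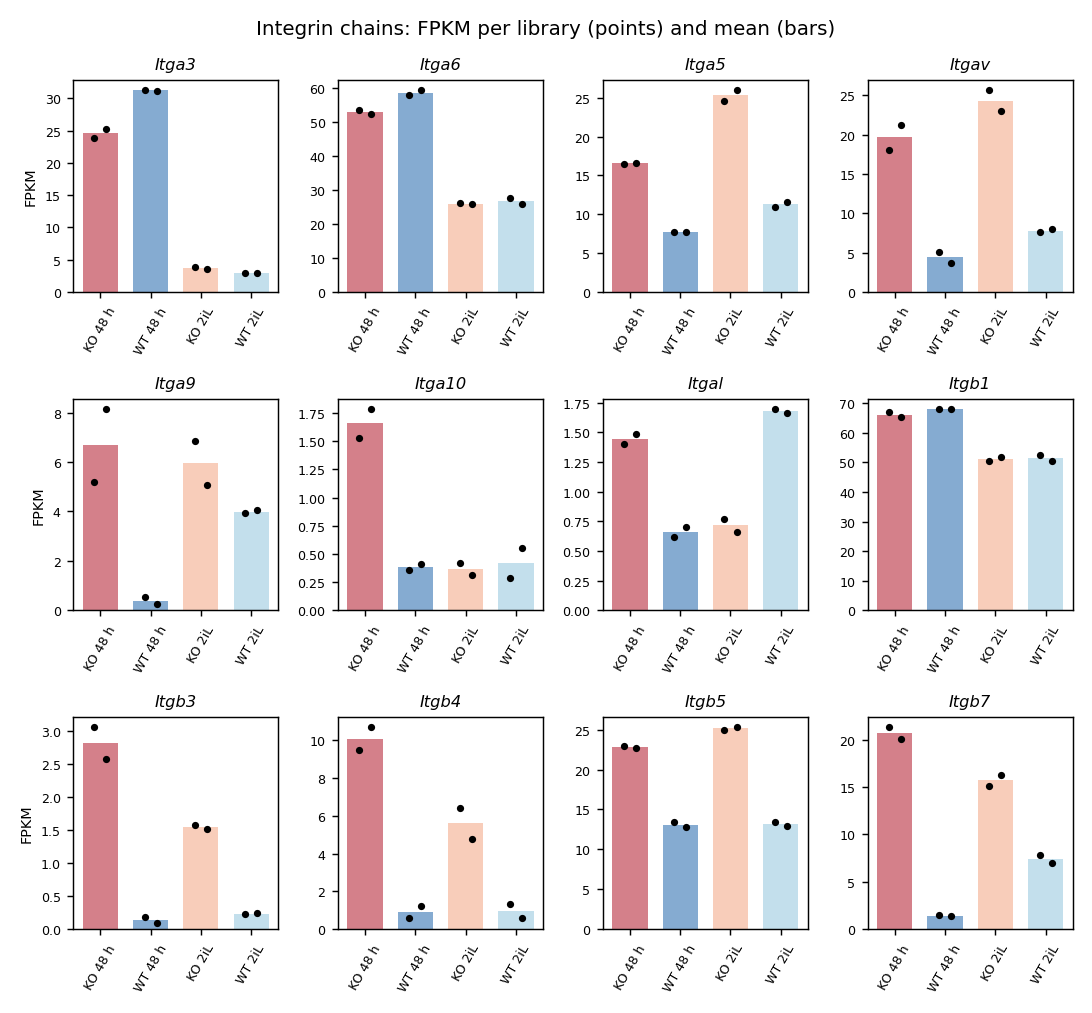
FPKM of the 12 tested integrin chains in KO and WT cells at 48 h and in 2iL; points are the 2 libraries of a group and bars their mean, each panel with its own axis from 0. Itga3, Itga6 and Itgb1 rise by 48 h in both genotypes, while Itga5, Itgav, Itgb4, Itgb5 and Itgb7 are higher in KO in both media.

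Collagens were mostly low, and 1 gene carried most of their signal. Col18a1, a basement membrane collagen whose end fragment is endostatin, made up 59.9% to 74.7% of the summed collagen FPKM in each library. It rose in both genotypes to 82.7 and 81.1 FPKM in KO and 72.8 and 72.2 FPKM in WT at 48 h, against 33.9 and 33.8 FPKM in KO and 21.4 and 21.7 FPKM in WT in 2iL (log2 1.25, limma adjusted p = 1.1e-06 in KO; 1.71, adjusted p = 1.2e-07 in WT). Of the 11 collagens tested, 6 rose and 0 fell by 48 h in KO, where 26.5% and 21.9% of all genes did, and 7 rose and 1 fell in WT, where 30.9% and 25.6% did. Col14a1 and Col5a3 are among the genes that rose in KO, and they passed the filter through KO at 48 h alone. The count of rises in KO is thus shaped by the filter.

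Col4a1 and Col4a2, the 2 chains of the common collagen IV trimer, rose in both genotypes and more in KO. Col4a1 reached 8.91 and 9.53 FPKM in KO and 6.35 and 6.85 FPKM in WT at 48 h, against 1.19 and 0.946 FPKM in KO and 2.91 and 2.71 FPKM in WT in 2iL (log2 2.31, limma adjusted p = 2.5e-06 in KO; 1.00, adjusted p = 7.7e-05 in WT; difference of the changes 1.31, SE 0.13, adjusted p = 0.00025). It was thus lower in KO in 2iL (−0.88, adjusted p = 0.00013) and higher in KO at 48 h (0.43, adjusted p = 0.004). Col4a2 reached 4.44 and 5.30 FPKM in KO and 1.58 and 1.79 FPKM in WT at 48 h, against 0.900 and 1.19 FPKM in KO and 0.733 and 0.764 FPKM in WT in 2iL (1.52, limma adjusted p = 4.6e-05 in KO; 0.62, adjusted p = 0.0028 in WT; difference of the changes 0.90, adjusted p = 0.0039). The Col4a1 value divided by the Col4a2 value was 2.01 and 1.80 in KO and 4.01 and 3.82 in WT at 48 h, and 1.32 and 0.796 in KO and 3.97 and 3.55 in WT in 2iL, so the ratio was lower in all 4 KO libraries than in any WT library. The other collagen IV chains, Col4a3 to Col4a6, stayed below 0.5 FPKM in every library.

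Col4a1 and Col4a2 lie head to head, and their RefSeq starts at positions 11312826 (minus strand) and 11312805 (plus strand) of chromosome 8 in GRCm38.p6 are 21 bases apart. Their annotated spans overlap there, and the labels do not say whether reads were assigned by strand. Of the 31 tested genes, 19 have RefSeq promoter windows of 300 bases (250 before and 50 after the start). GGGCGG is in a window of 14 of them, CCAAT of 6 and TATAAA of 0, and of all 27025 genes with a window 38.2%, 41.1% and 15.7% hold each motif in at least 1 window.

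The fibril-forming collagens of connective tissue were near the floor, with Col1a1, Col1a2 and Col3a1 below 0.5 FPKM in all 8 libraries. Col5a3, which joins collagen V, was higher in KO at 48 h, with 1.14 and 1.23 FPKM in KO and 0.240 and 0.273 FPKM in WT, and lower in KO in 2iL, with 0.182 and 0.263 FPKM in KO and 0.928 and 1.03 FPKM in WT. It entered the test only through the KO libraries at 48 h, so no test is given for its level there. It fell in WT (log2 −0.65, limma adjusted p = 0.00075). Col2a1, the main cartilage collagen, held 2.48 and 2.57 FPKM in KO and 0.993 and 1.41 FPKM in WT at 48 h. In 2iL it held 1.71 and 1.97 FPKM in KO and 0.549 and 0.475 FPKM in WT. It passed the filter only because of its KO libraries, so no test is given for it between genotypes. Col5a1 ranged from 1.15 to 2.52 FPKM over the 8 libraries, and its difference at 48 h (0.43, limma adjusted p = 0.012) was lost without KO 48 h replicate 2 or WT 48 h replicate 2, with adjusted p up to 0.077.

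Of the fibril-associated collagens, Col9a2 and Col9a3, 2 chains of cartilage collagen IX, differed between genotypes in 2iL. Col9a2 held 3.73 and 4.57 FPKM in KO and 3.91 and 4.08 FPKM in WT at 48 h, and 5.12 and 6.51 FPKM in KO and 1.14 and 2.25 FPKM in WT in 2iL (log2 1.36, SE 0.20, limma adjusted p = 0.00079 in 2iL). Col9a3 held 0.929 and 1.18 FPKM in KO and 1.39 and 1.42 FPKM in WT at 48 h, and 1.27 and 2.56 FPKM in KO and 0.486 and 0.192 FPKM in WT in 2iL (1.10, SE 0.21, adjusted p = 0.0031 in 2iL). Both rose in WT (0.92 and 0.86), and the Col9a3 call was lost without WT 2iL replicate 2 (highest adjusted p = 0.071); its gene overlaps Tcfl5. The partner chain Col9a1 was below 0.5 FPKM throughout. Col14a1, a tendon and skin collagen, was at 1.17 and 1.40 FPKM in KO and at 0 and 0.0582 FPKM in WT at 48 h, and below 0.15 FPKM in 2iL. It entered the test only through the KO libraries at 48 h, so no test is given for that difference.

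Col26a1 held 3.17 and 4.02 FPKM in KO and 0.816 and 0.526 FPKM in WT at 48 h. In 2iL it held 1.93 and 2.12 FPKM in KO and 0.879 and 0.695 FPKM in WT. It entered the test only through the KO libraries, so no test is given for it between genotypes. Its rise by 48 h in KO (log2 0.60, limma adjusted p = 0.0086) was lost without KO 48 h replicate 2. The difference of its changes (0.70, limma adjusted p = 0.022) was lost under 5 of 13 alternatives. Col6a5, a collagen VI chain, was at 2.55 and 2.23 FPKM in KO and 1.55 and 1.90 FPKM in WT at 48 h, and at 1.64 and 2.01 FPKM in KO and 0.736 and 0.572 FPKM in WT in 2iL (0.77, adjusted p = 0.00094 in 2iL). Its difference at 48 h (0.32, limma adjusted p = 0.044) was lost under 8 of 10 alternatives, with adjusted p up to 0.22. Just outside the filter lay Col27a1, with 0.167 and 0.283 FPKM in KO and 0.853 and 1.10 FPKM in WT at 48 h, and Itgam, with 0.279 and 0.281 FPKM in KO and 1.07 and 0.965 FPKM in WT at 48 h. Both KO values lay below both WT values for each gene, and neither gene entered the filtered test.

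**Figure D4:**
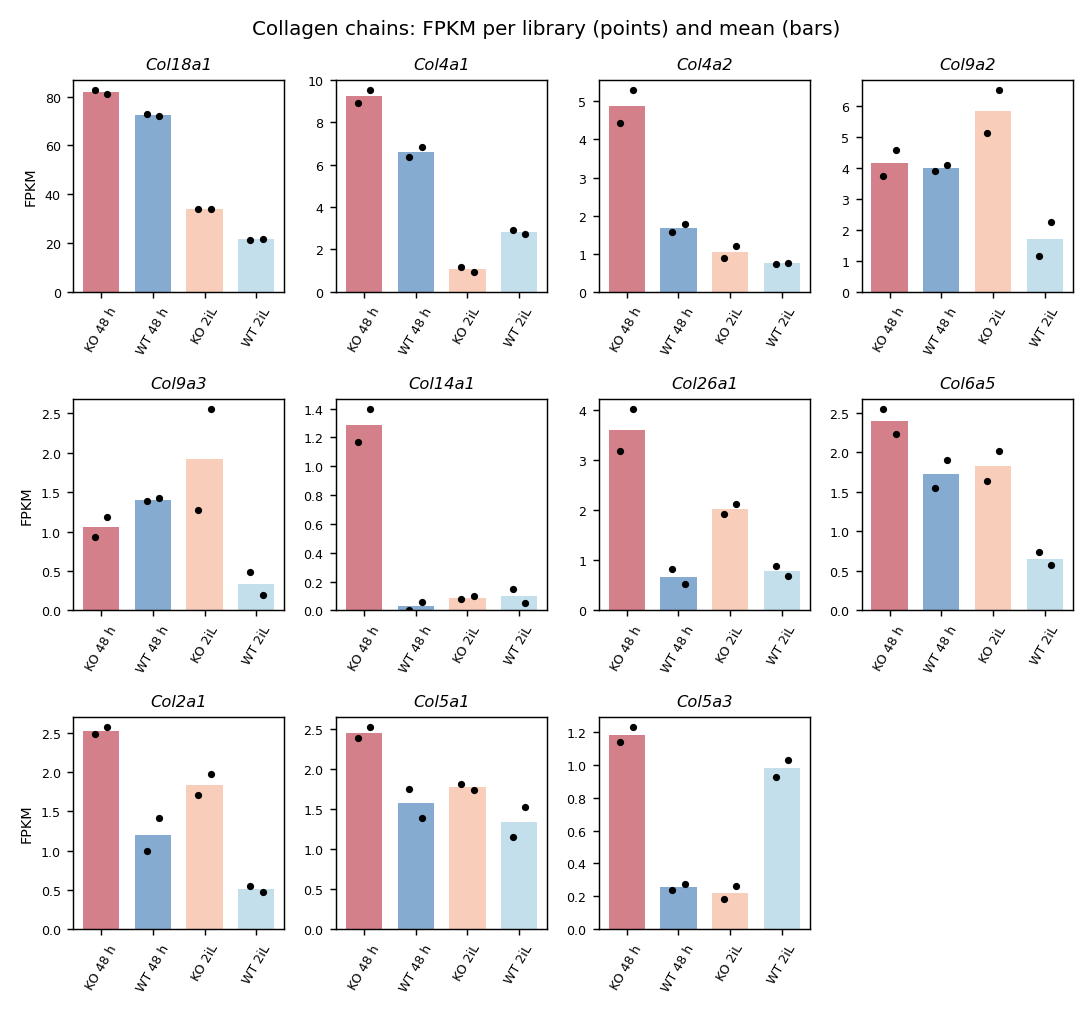
FPKM of the 11 tested collagen chains in KO and WT cells at 48 h and in 2iL; points are the 2 libraries of a group and bars their mean, each panel with its own axis from 0. Col18a1 reaches 82.7 FPKM, while every other collagen stays below 10 FPKM.

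The 48 h change itself differed between genotypes for 20 of the 31 genes, more positive in KO for 15 and in WT for 5, where 21.1% and 21.7% of all genes tested were called in these directions and 42.9% in either. The filter shapes the count of 15. Col14a1, Col5a3, Itga10 and Lamb3 passed it through KO at 48 h alone, and Itgb3 and Col26a1 only through KO libraries of both media. With no filter, 15 of 77 genes were called more positive in KO (19.5%, with 12.1% over all genes). In WT 11 were (14.3%, with 13.8%). Itgb7, Col5a3, Itgal and Lamb3 were called in opposite directions, rising in KO and falling in WT, though Col5a3 and Lamb3 passed the filter through KO at 48 h alone. Lamc1, Lama3 and Itga9 were not called in KO and fell in WT. Col9a3, Col9a2, Lamb1, Itga3 and Col18a1 had the more positive change in WT. For Itga5, Itga6, Itgb1, Itgb5, Lamb2, Lama5, Col2a1, Col5a1, Col6a5, Itgav and Itgb4 the difference was not called, which does not show that the changes were equal.

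**Figure D5:**
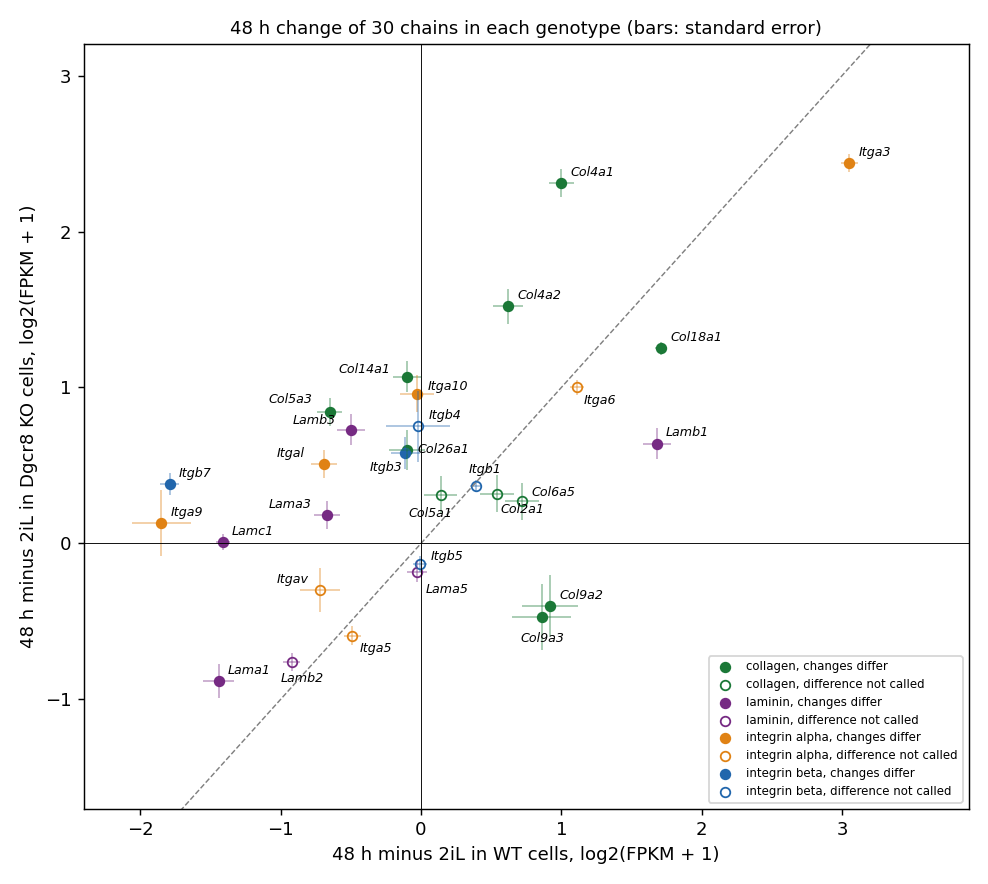
Change by 48 h in Dgcr8 KO cells against the change in WT cells for 30 tested chains, both in log2(FPKM + 1) with standard errors as bars; filled points are genes whose changes differ between genotypes (limma adjusted p below 0.05) and the dashed line marks equal changes. Itgb7 lies at 0.38 in KO and −1.79 in WT, and Itga3 at 2.44 in KO and 3.05 in WT.

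The other genes of the matrix were read from lists of partners, enzymes and adaptors. All 12 tested of 18 basement membrane and matrix partners were higher in KO at 48 h (median log2 1.65), where 33.4% of all genes were and the median of all was −0.05. In 2iL 8 were higher and 2 lower, where 30.6% and 32.8% of all genes were. The filter shapes both counts of higher genes, because Npnt and Tinagl1 were below 1 FPKM in every WT library and passed it only through KO. Nid1, the nidogen that links laminin to collagen IV, held 32.9 and 31.1 FPKM in KO and 1.65 and 1.55 FPKM in WT at 48 h, against 47.5 and 46.6 FPKM in KO and 33.4 and 31.6 FPKM in WT in 2iL. Fn1, fibronectin, the ligand of the Itga5 integrin, held 225 and 226 FPKM in KO and 36.7 and 38.1 FPKM in WT at 48 h, and 294 and 271 FPKM in KO and 143 and 136 FPKM in WT in 2iL. The log2 differences at 48 h were 3.67 for Nid1 and 2.56 for Fn1, and 2.68 for Egfl6, a ligand of RGD-binding integrins. In both genotypes Nid1 and Fn1 fell by 48 h, and the falls were smaller in KO (−0.54 against −3.69 in WT for Nid1, −0.32 against −1.87 in WT for Fn1). The perlecan gene Hspg2 was higher in KO in both media (1.07 at 48 h and 0.92 in 2iL).

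The remaining lists are read against the 33.4% of all genes called higher and 38.5% called lower in KO at 48 h. Of 22 collagen-processing genes tested, 11 were higher and 7 lower in KO at 48 h. Adamts14, which trims procollagen, had the largest log2 difference (2.63), but it passed the filter only because of its KO libraries. Loxl4, also among the 11, passed it only through KO in 2iL, so that count is shaped by the filter. P3h4 (1.86) and P3h1 (1.53) were next. The prolyl hydroxylase P4ha2 (−1.25) and the basement membrane peroxidase Pxdn (−0.79) were among the lower. Matrix proteases and inhibitors gave 8 higher and 6 lower of 14, led by Htra1 (3.73) and Mmp15 (−1.51). The filter shapes these counts too. Plat, called higher, passed it only because of its KO libraries at 48 h, and Timp2 and Timp3, called lower, through WT at 48 h alone. The integrin adaptors gave 9 higher and 8 lower of 23, near the shares over all genes. Parva, which joins integrin-linked kinase to actin, was the highest, with 26.2 and 27.8 FPKM in KO and 3.02 and 3.19 FPKM in WT at 48 h, whereas the focal adhesion genes Zyx (−2.36), Bcar1 (−1.25) and Vcl (−1.03) were lower in KO. Of the other matrix receptors 3 were higher and 3 lower of 9, also near the shares over all genes. The syndecan Sdc4 (2.71), Cd47 (1.85) and the laminin receptor Bcam (1.26) were higher, and Sdc1 (−0.63), Rpsa (−0.55) and Ddr1 (−0.3) were lower.

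Marker lists of other cell types were read beside these results. Primitive and parietal endoderm, which secretes much laminin and collagen IV, was represented by 10 markers that summed to 1.96 and 1.95 FPKM in KO and 2.39 and 3.07 FPKM in WT at 48 h, and 2.49 and 2.77 FPKM in KO and 2.14 and 2.34 FPKM in WT in 2iL; of these only Dab2 in WT at 48 h reached a group mean of 1 FPKM. The 10 fibroblast and feeder markers summed to 19.1 and 19.4 FPKM in KO and 23.4 and 22.7 FPKM in WT at 48 h, and 2.30 and 2.22 FPKM in KO and 2.68 and 3.1 FPKM in WT in 2iL. In KO at 48 h 2 of them reached 1 FPKM, Dcn and Thy1, and in WT 4 did, Thy1, Tagln, Acta2 and Dcn, while Postn and Prrx1 were below 0.05 FPKM in all 4 groups. The counts that follow stand against the 33.4% of all genes called higher and 38.5% called lower in KO at 48 h. Of 4 trophectoderm markers tested 3 were higher and 0 lower in KO at 48 h. Gata3, among the 3, passed the filter through KO at 48 h alone, so its being high there is not a result. The trophectoderm list summed to 27.1 FPKM in both KO libraries and 21.5 and 22.6 FPKM in WT at 48 h. Of 4 neuroectoderm markers tested 2, Neurod1 and Pax6, were higher and 1, Nes, lower in KO, with sums of 37.3 and 40.1 FPKM in KO and 28.4 and 27.8 FPKM in WT at 48 h. Of 7 formative markers, which mark cells that have left the naive state, 1 was higher and 6 lower in KO, with sums of 350 and 343 FPKM in KO and 991 and 968 FPKM in WT at 48 h. Fgf5, among the 6, passed the filter through WT at 48 h alone. The part of these markers in the results was not tested.

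The small RNA libraries, from WT cells only, hold the miR-29 family, known to repress collagen mRNAs in other tissues. No KO small RNA was analysed here. The mature sequences, from RefSeq on GRCm38.p6, are shown because they share the seed AGCACCA (bases 2 to 8, in capitals).
miR-29a-3p: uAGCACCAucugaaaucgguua
miR-29b-3p: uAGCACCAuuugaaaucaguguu
miR-29c-3p: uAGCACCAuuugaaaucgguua
On the deposited relative scale, where each library sums to 110000, miR-29a-3p stood at 7.17 and 7.30 at 0 h, 8.70 and 8.66 at 12 h, 8.97 and 10.5 at 24 h and 29.5 and 27.1 at 48 h. Its 48 h libraries lay above those of every earlier time. The miR-29b-3p value listed for hairpin 29b-1 was 0.705 and 0.483 at 0 h and 2.04 and 1.48 at 48 h, and miR-29c-3p stayed between 0.143 and 0.421 at all times. In the WT RNA libraries 7 of 11 tested collagens rose by 48 h and 1, Col5a3, fell (30.9% and 25.6% of all genes did), and any link to miR-29 was not tested.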

How the data were processed

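RNA-seq libraries were made with a dUTP protocol, per the labels' protocols, which give polyA RNA as the molecule. The submitters' processing notes name STAR 2.5.0, Cufflinks 2.2.1 and mm10. The authors deposited FPKM per Ensembl identifier for the 8 RNA libraries and a relative signal per miRNA arm for the 8 small RNA libraries, deposited on a scale that sums to 110000 per library; the labels give neither the annotation nor the small RNA matching. Symbols were matched for 40071 of 41202 identifiers, and of 56 repeated identifiers the first entry was kept; no collagen, laminin or integrin gene was repeated.

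log2(FPKM + 1) was fitted with limma 3.58.1 (R 4.3.3; 4 group means, intensity trend) over 13166 genes, those reaching 1 FPKM in 2 or more libraries, and p-values were adjusted by Benjamini-Hochberg over all of them; fold changes on this scale understate those of low genes. The fit was tested on simulated data. The members, lists, tests and naming rule (12 fixed chains, and up to 6 called genes in each direction per comparison) were chosen with earlier results of these data known. Of the 31 tested genes 30 are named, which goes beyond that rule; the other is counted but not reported here; Col27a1 and Itgam lie just below the filter. Alternatives were pseudocount 0.1, other filters and scalings, a replicate block, each comparison fitted alone, and leaving out each library. The replicate numbers are not read as pairs.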

Additional observations from a re-analysis of the deposited data

Results flagged for a closer look

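The 48 h change differed between Dgcr8 KO and WT cells in a test of the difference itself (limma interaction, adjusted p below 0.05) for the genes below, and each value is the log2 change in KO minus that in WT. The more positive change in KO was that of Itgb7 (2.17), Itga9 (1.97), Col5a3 (1.49), Lamc1 (1.42), Col4a1 (1.31), Lamb3 (1.23), Itgal (1.20), Col14a1 (1.17), Itga10 (0.99), Col4a2 (0.90), Lama3 (0.85), Col26a1 (0.70), Itgb3 (0.69) and Lama1 (0.56). The more positive change in WT was that of Col9a3 (−1.33), Col9a2 (−1.32), Lamb1 (−1.04), Itga3 (−0.60) and Col18a1 (−0.46). Each genotype is 1 line, so genotype and line cannot be told apart. Col14a1, Col5a3, Itga10 and Lamb3 entered the test only through the KO libraries at 48 h, so their values partly follow from the filter. Itgb3 and Col26a1 entered it only through the KO libraries of both media, so the same limit holds for them. Under alternatives that left out 1 library, the Lama1 and Col26a1 values lost their calls.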

How the results depend on the processing

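Of 112 calls of single genes over the 5 comparisons, 100 were kept under every alternative run (leaving out libraries of the groups compared), 12 were lost under at least 1 and 0 reversed; of 43 uncalled values, 13 became calls under some alternative, among them Itgb1 in 2iL with quantile scaling, where KO became higher (log2 0.13). A mean of at least 5 FPKM left fewer genes to test, 14 of these among 8584 in all. Of the 14, 5 rose and 7 fell in WT, where 2450 and 2534 of all genes did, and 7 rose in KO, where 2279 did. In 2iL 10 were higher and 2 lower in KO, where 2532 and 3422 of all genes were. At 48 h 9 were higher, where 2893 were. The difference of the changes gave 4 and 3, where all genes gave 2005 and 1608. With no filter 77 genes were tested. They gave 20 rises in WT (26.0%, with 21.0% over all genes) and 6 falls in KO (7.79%, with 12.8%). In KO 8 were lower in 2iL (10.4%, with 18.2%) and 10 at 48 h (13.0%, with 24.8%). The more positive change was in WT for 11 (14.3%, with 13.8%). Median-ratio and quantile scaling each gave 5 falls in KO. Leaving out 1 library of the groups compared gave 10 to 11 rises and 12 falls in WT, 15 to 17 rises and 3 to 5 falls in KO (5 without KO 2iL replicate 1), 16 to 18 higher and 4 to 6 lower in 2iL, 21 to 22 higher and 2 lower at 48 h, and 13 to 16 and 5 for the difference of the changes. A library left out of the other groups, which share the estimate of spread, gave 18 rises and 4 to 5 falls in KO (5 without either WT 2iL library) and 22 to 24 higher and 3 lower at 48 h. With the replicate block, 22 genes were higher in KO at 48 h and the other counts did not move; correlations of same-numbered libraries ran from −0.153 to 0.18, so the numbers were not taken to pair them. With 2 libraries per group and unknown depth, values near 1 FPKM are the least certain.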
